A study of Mus musculus with 6 samples.

Results

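The genes described here are Ddit4 and 8 genes of the mTOR pathway, Mtor, Rptor, Rictor, Tsc1, Tsc2, Rheb, Rps6kb1 and Akt1, read by name from a table of 22416 genes in mouse oocytes. All 9 were in the table and all 9 were among the 15129 genes whose level averaged 1 FPKM or more and which were tested. The set was chosen on measured values: Ddit4 was picked because its footprints were high at metaphase II and 0 in fully grown oocytes. Its own values are therefore given as a description with no test, and every count of genes called covers the other 8.

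The measurement was Ribo-lite, ribosome profiling for small numbers of cells, which sequences the mRNA fragments that ribosomes protect from nuclease. Each of 3 groups had 2 libraries of 500 oocytes. WT_FGO held fully grown oocytes, which still have the germinal vesicle, and WT_MII held controls that had matured to metaphase II. Treat_MII held metaphase II oocytes that had been treated. All 3 groups carried the WT genotype, and the oocytes came from 4-week-old females given 5 IU of PMSG, a gonadotropin that stimulates follicle growth, 44 h before collection. The labels say no more of the treatment than that, and by the study's methods the agent was BYBX, a ligand of RNA G-quadruplexes, and control oocytes of both stages received its solvent DMSO. Values are FPKM, footprints per kilobase of coding sequence and scaled to the reads of the library, so levels can be compared between genes, but a change in total footprints per oocyte is not visible. No mRNA libraries were analysed, so more mRNA and more ribosomes per mRNA cannot be told apart.

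The mTOR kinase works in a pair of complexes. mTORC1, built around the scaffold protein Raptor (Rptor), promotes translation and growth, and mTORC2, built around Rictor, phosphorylates AKT. The GTPase Rheb switches mTORC1 on, and the TSC1-TSC2 complex switches Rheb off. AKT inhibits TSC2, and Ddit4 (also called REDD1), a stress-induced protein, releases TSC2 from that inhibition, so Ddit4 lowers mTORC1 activity. The S6 kinase Rps6kb1 is a substrate of mTORC1. In oocytes transcription is silent during maturation, and which stored mRNAs are translated depends largely on elements in their 3′-untranslated regions (3′-UTRs).

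Sequences of the Ddit4 3′-UTR are shown first because polyadenylation elements and RNA G-quadruplexes are the features the study's design bears on. They come from GENCODE mouse release M21 on GRCm38 (the mm10 assembly), and positions are counted from 1 at the first base after the stop codon. Ddit4 lies on chromosome 10 at 59949669 to 59951834, minus strand, and its 3′-UTR has 867 bases. Capitals in the first line mark TTTTACT, a variant of the cytoplasmic polyadenylation element that was added to the search after this 3′-UTR had been seen, and the polyadenylation signal AATAAA. Capitals in the other lines mark runs of G.
Ddit4 3′ end, chr10:59949685-59949714, minus strand: cctatgcaatatTTTTACTtttctAATAAA
Ddit4 G-quadruplex motif at bases 11 to 30, chr10:59950506-59950525, minus strand: GGGGtGGGGtgcGGGGaGGG
Tsc1 G-quadruplex motif at bases 2826 to 2844 of its 3′-UTR, chr2:28689999-28690017, plus strand: GGGGGcGGGGaGGGGGGGG
Rptor G-quadruplex motif at bases 411 to 438 of its 5′-UTR, chr11:119603559-119603586, plus strand: GGGtcctgcGGGcttGGGtacccacGGG

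The G-quadruplex motif was 4 or more runs of 3 or more G with 1 to 7 bases between them, searched on the mRNA strand. The bases between runs may themselves be G, so a long run, as in Tsc1, can count as more than 1. The Ddit4 match shown begins at base 11 of the 3′-UTR, and no match was found in the Ddit4 5′-UTR or coding sequence. Windows were the first 867 bases of the 3′-UTR in the 7343 tested genes with at least that many, and 8.24% held any match. The Tsc1 and Rptor matches lie in regions of which 21.6% and 13.0% of windows of the same lengths held any. A match is a description of letters and not a measured structure.

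The polyadenylation signal of Ddit4 began 22 bases before the annotated end, and TTTTACT began 12 bases before the signal. As TTTTACT was added to the search after the Ddit4 3′-UTR had been seen, its share over genes is background and not a test. TTTTACT was present in the last 150 bases of 3.22% of 12968 genes, and the usual elements TTTTAT or TTTTAAT in 24.2%. A polyadenylation signal, AATAAA or ATTAAA, was present there in 81.0%. Among the other members, Rheb and Akt1 held TTTTACT and Rps6kb1 held a usual element in that window. Mtor, Rptor, Rictor, Tsc1 and Tsc2 held neither, with only 84 bases of 3′-UTR annotated for Tsc2, and Rheb had no AATAAA there.

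Library totals are small and set the precision of everything below. The reads behind the FPKM could be recovered for 96.3% of genes, and the WT_FGO libraries held 94309 and 107251 reads, the WT_MII libraries 164972 and 230907 and the Treat_MII libraries 331304 and 275604. All 10 oocyte markers were above 0 in all 6 libraries. Markers of granulosa and cumulus cells, the somatic cells around the oocyte, summed to between 315.2 and 2061 FPKM over all 14 genes, with 5 to 11 above 0 in a library. The sum of 2061 FPKM was in WT_MII replicate 1, where Hsd17b1 alone gave 1956, and WT_FGO replicate 2 had 1781. Without Hsd17b1 the markers summed to 1293 FPKM in WT_FGO replicate 2, of which Gja1 gave 740.4. They then summed to between 104.8 and 191.3 FPKM in the other libraries. By these sums WT_FGO replicate 2 stands apart only when Hsd17b1 is left out. Fits without WT_FGO replicate 2 were run, but how much of its values below came from somatic cells was not tested.

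Ddit4 had 0 reads in both WT_FGO libraries. It stood at 503 FPKM (57 reads) and 517 FPKM (82 reads) in WT_MII, and at 413 FPKM (94 reads) and 407 FPKM (77 reads) in Treat_MII. These levels were above those of 98.7 to 99.1% of all genes in the metaphase II libraries. A floor of 3 reads per library was taken as the limit for a count of 0. Against this floor, Ddit4 was at least 11.7-fold higher in WT_MII and at least 9.42-fold higher in Treat_MII than in WT_FGO. The floor corresponded to 46.3 and 40.7 FPKM in the WT_FGO libraries. The 95% counting intervals of 0 reads reached higher there, to 56.9 and 50.1 FPKM. Whether WT_FGO held Ddit4 footprints below these levels was not tested. Between the metaphase II groups both treated libraries lay below both controls. The ratio of treated to control read rates was 0.802 (95% interval 0.638 to 1.01, counting error only). Ddit4 was chosen on its metaphase II levels, so the ratio and its interval are a description and not a test of treatment.

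**Figure D1:**
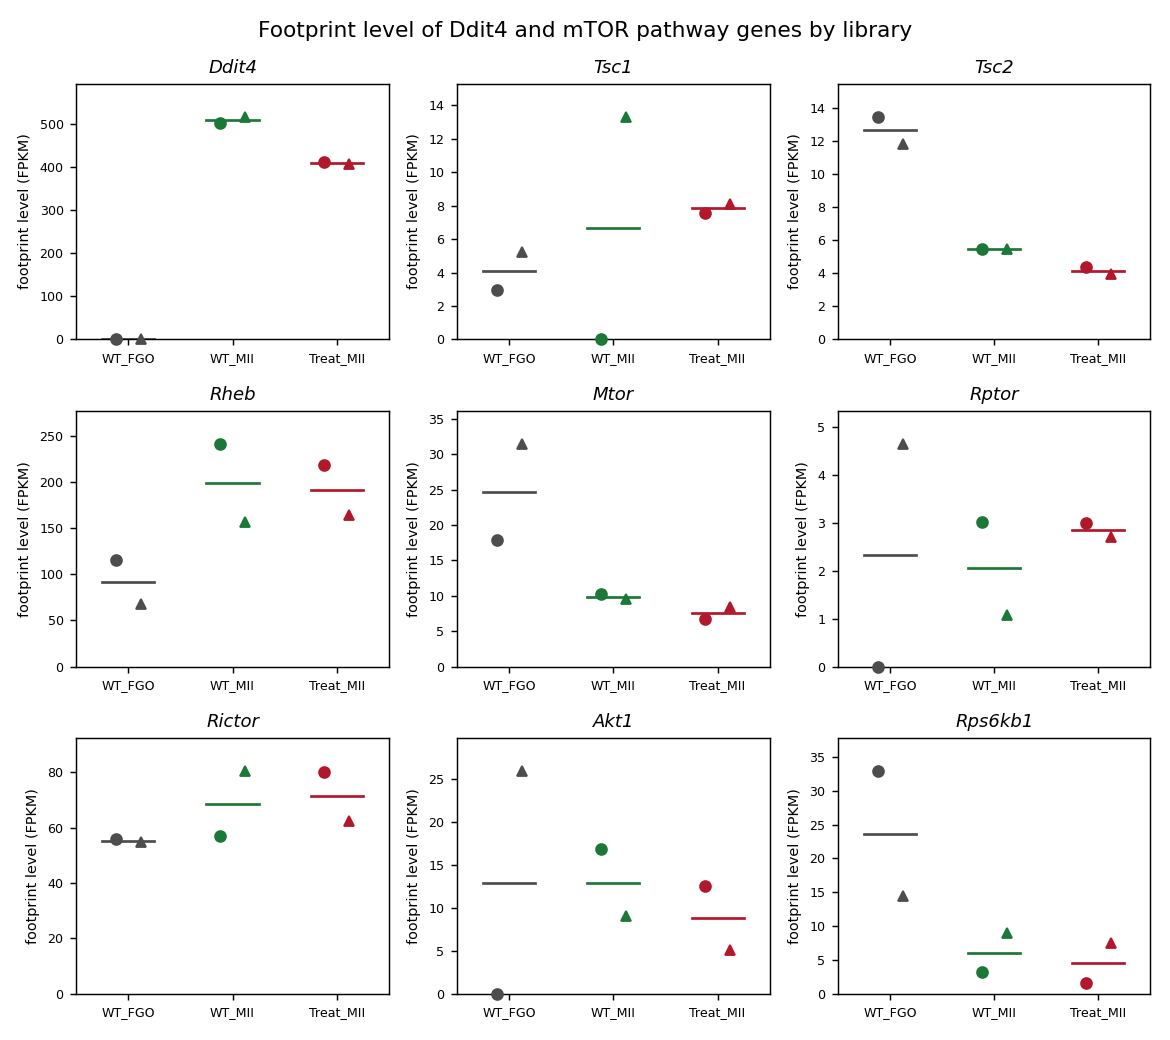
Footprint level in FPKM (y axis, linear and scaled for each gene) of the 9 genes in the 3 groups (x axis); circles are replicate 1, triangles replicate 2 and bars group means. Ddit4 is at 0 in both WT_FGO libraries and between 407 and 517 FPKM in the 4 metaphase II libraries, and no other gene is at 0 in both libraries of a group.

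Among the members that are inhibitors of mTORC1 or their GTPase, Rheb was the best expressed besides Ddit4. Rheb, the activator of mTORC1, stood at 115 and 67.6 FPKM in the WT_FGO pair, 242 and 157 in the WT_MII pair and 219 and 164 in the Treat_MII pair. Every metaphase II library was above both WT_FGO libraries, but the maturation change of 1.13 on the log2(FPKM + 1) scale (SE 0.44) was not called (limma, adjusted p = 0.192), and it rested on 10 reads in WT_FGO. Without WT_FGO replicate 2 the change was 0.75 (limma, adjusted p = 0.379). The treated and control libraries of Rheb overlapped.

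Tsc2, the subunit that inactivates Rheb, stood at 13.5 and 11.8 FPKM in the WT_FGO pair, 5.50 and 5.50 in the WT_MII pair and 4.38 and 3.95 in the Treat_MII pair. The groups did not overlap, but each library held 5 to 8 reads and the maturation change was −1.07 (SE 0.77, limma, adjusted p = 0.490). Tsc1, the partner that stabilizes Tsc2, stood at 2.96 and 5.21 FPKM in the WT_FGO pair, 0 and 13.3 in the WT_MII pair and 7.59 and 8.11 in the Treat_MII pair. The 2 WT_MII libraries of Tsc1 spanned the range of all the others, and its mean level was higher in WT_MII (6.66 FPKM) than in WT_FGO (4.09 FPKM) while the fitted change was −0.39 (SE 1.40).

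Of the complexes, Mtor, the kinase itself, stood at 17.9 and 31.4 FPKM in the WT_FGO pair, 10.2 and 9.55 in the WT_MII pair and 6.66 and 8.47 in the Treat_MII pair. All 4 metaphase II libraries lay below both WT_FGO libraries, and both treated ones below both controls. The maturation change was −1.19 (SE 0.69, limma, adjusted p = 0.407) and the treatment change −0.35 (SE 0.69, limma, adjusted p = 1.0), so neither was called. Rictor, the mTORC2 scaffold, stood at 55.9 and 54.6 FPKM in the WT_FGO pair, 56.8 and 80.3 in the WT_MII pair and 80.1 and 62.3 in the Treat_MII pair, with 27 to 136 reads per library. Its change was 0.29 at maturation (SE 0.43, limma, adjusted p = 0.730) and 0.06 at treatment (SE 0.43). Rptor, the mTORC1 scaffold, had 0 to 4 reads per library and lay at or under the floor in WT_FGO and WT_MII, so no fold is given. Rictor therefore exceeded Rptor in all 6 libraries, by 49.9 to 79.2 FPKM.

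Akt1, the kinase upstream of TSC2, had 0 reads in WT_FGO replicate 1 and 4 in replicate 2. Replicate 2 had the highest sum of granulosa markers once Hsd17b1 was left out. Its levels were 0 and 25.9 FPKM in the WT_FGO pair, 16.8 and 9.02 in the WT_MII pair and 12.6 and 5.04 in the Treat_MII pair, and all 3 groups overlapped. Rps6kb1, the S6 kinase, stood at 32.9 and 14.4 FPKM in the WT_FGO pair, 3.13 and 8.95 in the WT_MII pair and 1.56 and 7.50 in the Treat_MII pair. Both WT_FGO libraries of Rps6kb1 were above all 4 metaphase II libraries, on 1 to 6 reads per library, with a maturation change of −1.84 (SE 1.01, limma, adjusted p = 0.375).

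None of the 8 genes other than Ddit4 was called at maturation, where 3.67% of all tested genes were called higher and 3.09% lower (limma, adjusted p under 0.05). None was called at treatment either, where the share over all genes was 0.0%, nor between Treat_MII and WT_FGO, where 2.86% were called higher and 0.998% lower. At an unadjusted p under 0.05 the fit gave 1 of the 8 at maturation (Rheb), 0 at treatment and 1 between Treat_MII and WT_FGO (Rheb), where the shares of all tested genes were 22.8%, 5.82% and 19.9%. Weighted fits of the recovered reads (limma voom) called 0 at maturation, 0 at treatment and 1 (Mtor, −1.69, adjusted p = 0.0194) between Treat_MII and WT_FGO. The share of all genes called under voom is not given, so that call is not read as particular to Mtor. Both WT_MII libraries exceeded both of WT_FGO for 2 of the 8 and were lower for 3, against 15.3% and 25.8% of all genes. For 0 of the 8 were both treated libraries higher than both controls and for 2 lower (Mtor and Tsc2), against 16.2% and 15.6% of all genes. The median change of the 8 was −0.05 at maturation and −0.19 at treatment, and that of all tested genes −0.44 and 0.00. All 3 contrasts share libraries.

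**Figure D2:**
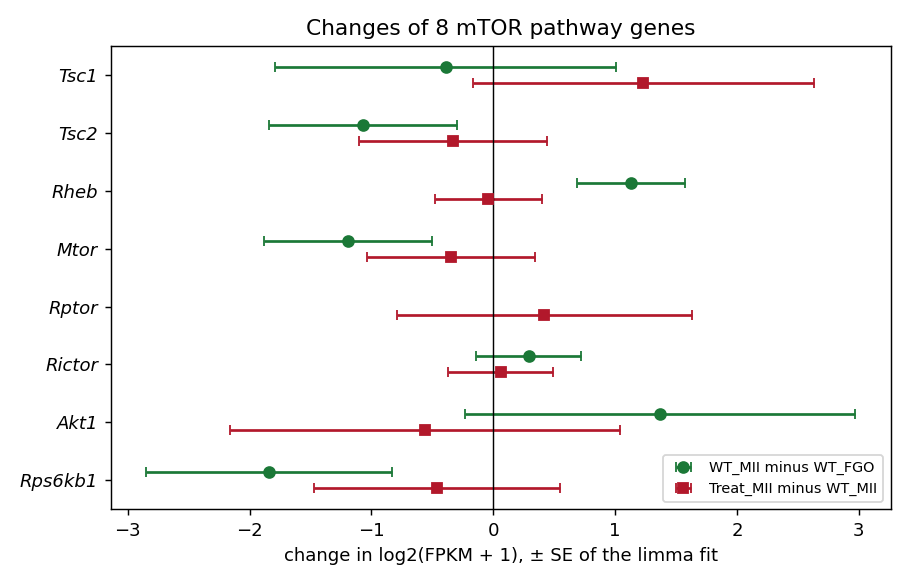
Change in log2(FPKM + 1) with its standard error (x axis) for the 8 genes other than Ddit4, at maturation (circles, WT_MII minus WT_FGO) and treatment (squares, Treat_MII minus WT_MII); Rptor has no maturation value because it lay at or under the floor in both groups. None of these changes was called, and the standard errors of Tsc1 and Akt1 are the widest at 1.40 and 1.60.

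The order of levels differed between stages most of all in the place of Ddit4, which follows from the values that chose it. Among the other members Rheb and then Rictor led, and Rptor came last, in every group. In WT_FGO the full order ran Rheb, Rictor, Mtor, Rps6kb1, Akt1, Tsc2, Tsc1, Rptor and Ddit4. There the ranges of Rheb and Rictor, of Rictor and Mtor, and of Tsc2 and Tsc1 did not overlap, and the other neighbours overlapped. In WT_MII and in Treat_MII it began with Ddit4, Rheb and Rictor, each without overlap with the next, and ended with Tsc2 and Rptor, which also did not overlap. From Akt1 down to Tsc2 each gene overlapped with the next in both groups. Ddit4 made up 55.2 to 64.5% of the summed FPKM of the 9 genes in the 4 metaphase II libraries, a share that also follows from the values that chose it.

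The genes with the pattern most like that of Ddit4, by Pearson correlation of log2(FPKM + 1) over the 6 libraries among 2603 genes, were Mdm2, Cep55, Stard13, Zfp513 and Glce, with r from 0.99939 to 0.99996. Mdm2, the ubiquitin ligase of p53, stood at 0 and 0 FPKM in the WT_FGO pair, 177.7 and 191.9 in the WT_MII pair and 158.4 and 148.4 in the Treat_MII pair. The pattern was common, since 146 of the genes compared had r of at least 0.99, and the points share libraries and depth.

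Around the members, 80 further genes of the pathway were listed with earlier results of these data known, and 74 were tested. At maturation 4 were called higher and 2 lower, against 3.67% and 3.09% of all tested genes, and at treatment none. Of the 6 called, 5 were among the 20 genes with at least 60 reads, and of all genes with that many reads 24.7% were called. All 6 calls depend on the fit: none was made when the compared groups alone were fitted, and 0 to 10 genes were called when a library was left out, with 0 without either Treat_MII library.

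The 9 genes listed for the induction and turnover of Ddit4 were chosen with earlier results of these data known. The count that follows is therefore a description and not a test. Of these 9 genes, 8 were tested and 4 were called at maturation, against 6.76% of all tested genes. All 4 had at least 60 reads, the class in which 24.7% of genes were called. Txnip, the thioredoxin-interacting protein, which binds Ddit4, rose from 97.9 and 117.4 FPKM in the WT_FGO pair to 3008 and 4062 in the WT_MII pair, with 4630 and 4417 in the Treat_MII pair. Its maturation change was 5.01 (SE 0.23, limma, adjusted p = 0.000758). Hif1a, the hypoxia factor that induces Ddit4 transcription, rose from 12.7 and 14.9 FPKM to 137.7 and 188.1 FPKM, a change of 3.46 (SE 0.40, limma, adjusted p = 0.00824), with 3 and 4 reads in WT_FGO. Atf4, also on this list, went the other way, from 91.2 and 35.6 FPKM in WT_FGO to 5.79 and 12.4 FPKM in WT_MII. Its change of −2.61 (SE 0.84, limma, adjusted p = 0.134) was not called and rested on 1 and 3 reads in WT_MII. Ddb1 and Btrc belong to ubiquitin ligases linked to Ddit4 turnover, and they moved in opposite directions. Ddb1 rose by 1.88 (SE 0.27, limma, adjusted p = 0.0167), whereas Btrc fell by 2.90 (SE 0.56, limma, adjusted p = 0.0378), from 80.4 and 190.1 FPKM to 17.2 and 14.4 FPKM. Btrc stood at 51.5 and 53.3 FPKM in Treat_MII, above both controls, but that change was not called (1.67, SE 0.56, limma, adjusted p = 0.836).

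**Figure D3:**
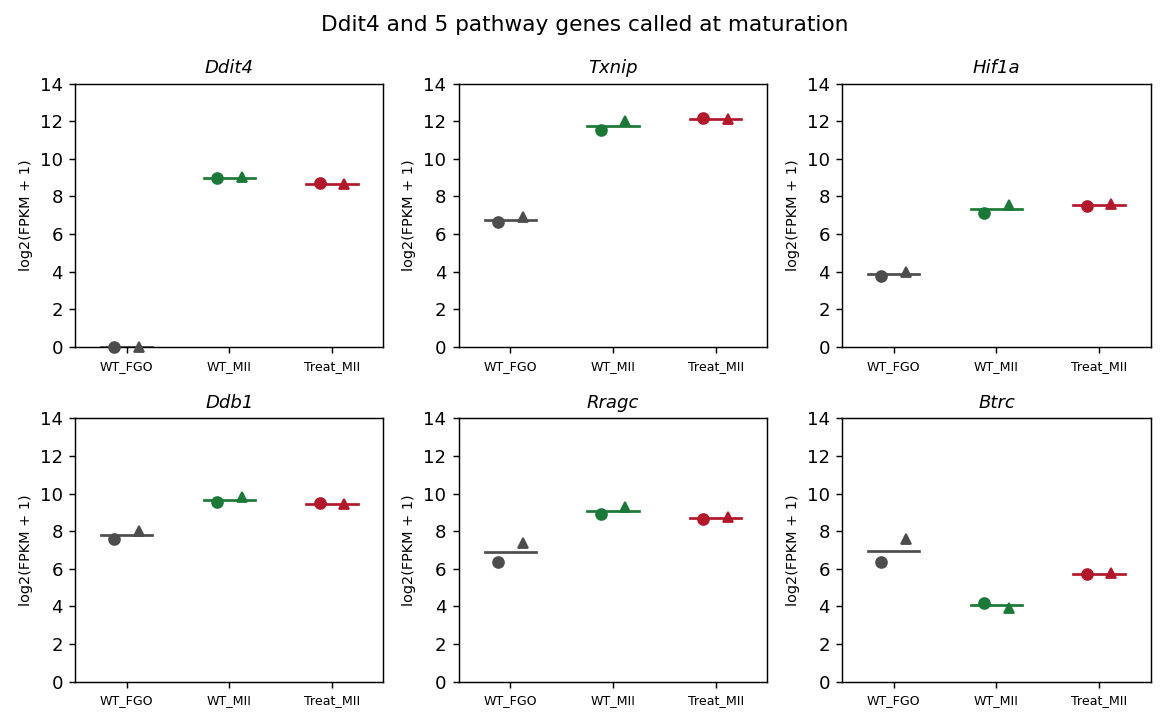
Footprint level as log2(FPKM + 1) (y axis) of Ddit4 and 5 pathway genes called at maturation, in the 3 groups (x axis); circles are replicate 1, triangles replicate 2 and bars group means. Txnip, Hif1a, Ddb1 and Rragc are higher in both WT_MII libraries than in both WT_FGO libraries, and Btrc is lower.

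In the amino acid sensing list, 1 of 29 tested genes was called at maturation, against 6.76% of all tested genes in either direction. Rragc, a Rag GTPase that brings mTORC1 to the lysosome, rose from 81.4 and 164.7 FPKM to 474.9 and 615.4 FPKM, a change of 2.21 (SE 0.40, limma, adjusted p = 0.0326). Its partner Rraga, with 1704 reads in all, changed by 0.64 (SE 0.26, limma, adjusted p = 0.223), and Sec13, a subunit of the GATOR2 complex, by −0.55 (SE 0.35). Among 14 tested upstream kinases and phosphatases the only call was Prkab2, an AMPK subunit, against the same 6.76% of all tested genes. Prkab2 had 2 and 3 reads in WT_FGO and 0 in WT_MII, at or under the floor in both, so no fold is given. Prkab1, the other beta subunit of AMPK, changed by 0.14 (SE 0.40). None of 14 tested effectors, none of 6 further complex subunits and none of 3 further inhibitors and GTPases was called, and at an unadjusted p under 0.05 these numbers were 2, 1 and 0, against 22.8% of all tested genes. Eef2k, the kinase of elongation factor 2, changed by 0.43 (SE 0.47).

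**Figure D4:**
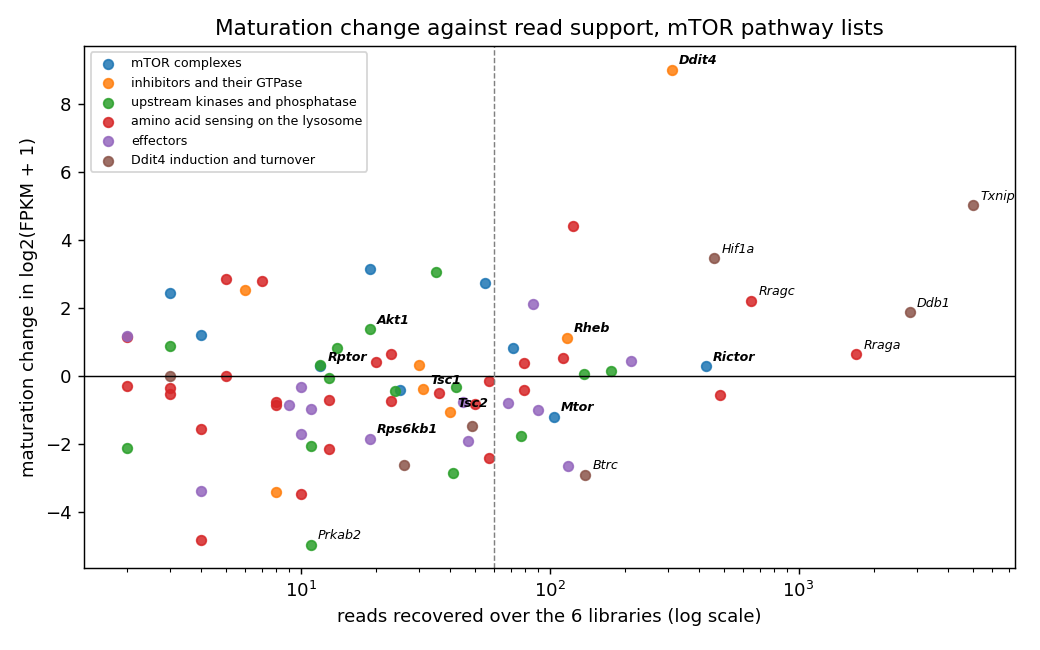
Maturation change in log2(FPKM + 1) (y axis) against the reads recovered over the 6 libraries (x axis, log scale) for the pathway genes, coloured by list, with the names of the 9 genes in bold and the dashed line at 60 reads. Of the 74 genes tested beside the 9, 51 lie under 60 reads and 3 whose reads could not be recovered are not plotted, while Txnip, Ddb1, Rragc, Hif1a and Btrc lie above it, and the fitted value of Ddit4 (0 reads in WT_FGO) depends on the 1 FPKM added.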

How the data were processed

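Reads were trimmed, aligned and turned by the authors into FPKM over coding sequence on mm10. The submitters' processing notes list cutadapt 1.14, Bowtie2 2.2.2 and STAR 2.5.3a, and the counter and annotation are not given in the sources used here. The deposited FPKM of 22442 entries were used, keeping the entry with the highest mean where a name was repeated (26 left out). Reads were recovered from FPKM and the GENCODE M21 coding length, with a tolerance of 0.02 reads.

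Genes averaging 1 FPKM or more entered a limma 3.58.1 model of log2(FPKM + 1) (R 4.3.3, mean-variance trend, 3 groups, all 6 libraries), with Benjamini-Hochberg adjustment and calls under 0.05. The study calls its replicates biological, but the labels do not say what separated them, so p-values measure the spread between these libraries. Printed motif sequences were checked against the GRCm38 genome. Some motif matches, and counts of matches per 3′-UTR, are not reported here. The members, the pathway lists and the markers were chosen with earlier results of these data known. Named beside the members were pathway genes called in any contrast, the 8 with the most reads and the 5 most like Ddit4. Atf4 was named in addition.

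The fit was tested on simulated counts at 3 settings. The median fitted change was close to the simulated one in all of them. Direction was checked only for changed genes that were called, and these had the right direction. At the wider simulated spread few or none of the large changes were called, and calls became frequent only at a setting with a narrower spread, a higher read minimum and some larger changes, all altered together. At that setting more unchanged genes were called than the threshold allows, each with under 60 reads. A gene that was not called is therefore not shown to be unchanged, and a call on few reads is uncertain.

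Alternatives were the pseudocount, the filter, median centring, quantile normalization, the replicate block, the compared groups alone, no trend, voom on recovered reads, and leaving out each library.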

Additional observations from a re-analysis of the deposited data

How the results depend on the processing

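With 2 libraries per group and few reads behind most members, only large changes could be called, and a change that was not called may still exist. Leaving out a library leaves its group with a single library that is assumed to vary like the others. Of 388 comparisons of a member's change with an alternative, 364 stayed the same, 18 reversed, 5 of Ddit4 moved and 1 gained a call, and the cause was not tested. Staying the same meant keeping direction and call. For Ddit4, which has no call, it meant keeping direction with a shift smaller than its fitted standard deviation. No member other than Ddit4 was called at maturation or treatment under any alternative, leaving out any library included (0 genes). Between Treat_MII and WT_FGO 1 was called by voom, Mtor at −1.69 (limma voom, adjusted p = 0.0194), and 0 on leaving out any library.

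The number of other pathway genes called at maturation, 6, became 3 with no filter, 0 with the compared groups alone, 2 without the trend, 13 under voom and 0 to 10 on leaving out a library (10 without either WT_FGO library, 0 without either Treat_MII library). At treatment, 0 became 2 under voom and 0 to 2 on leaving out a library. With the replicate block it was 5 at maturation, the Rheb change was 1.13 (limma, adjusted p = 0.174), and no member's call changed. The share of all genes called is not given for any alternative, so these numbers describe the fits and not the members or the pathway. The deviations of same-numbered libraries correlated with r of 0.0342, 0.0176 and 0.0189 over 2706 genes, so no pairing by number was visible. Whether same-numbered libraries shared a collection was not tested.

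The fitted maturation change of Ddit4 (9.0) depends on the value added to a level of 0. It was 12.32 with a pseudocount of 0.1 FPKM, 9.46 under median centring and 6.15 under voom, and that of Treat_MII against WT_FGO was 12 and 5.83 with the pseudocount and voom. With a floor of 1 read in place of 3 the bound was 35.2-fold.

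Reversals concerned changes that were not called. Under median centring the treatment change of Rictor was −0.05 and the maturation change of Tsc1 0.07, which was 0.23 under quantile normalization. Under voom the treatment change of Rheb was 0.0013 and the change of Akt1 between Treat_MII and WT_FGO −0.13. On leaving out a library the maturation change ran from −2.31 to 1.53 for Tsc1 and from −1.01 to 3.74 for Akt1. The treatment change ran from −0.18 to 0.31 for Rictor, −0.69 to 3.15 for Tsc1, −0.35 to 0.27 for Rheb, −0.06 to 0.89 for Rptor, −1.32 to 0.41 for Rps6kb1 and −1.15 to 0.02 for Akt1. Between Treat_MII and WT_FGO it ran from −0.55 to 1.95 for Rptor and −1.57 to 3.18 for Akt1. By Spearman correlation 1 of the 5 genes most like Ddit4 remained among the top, where 47 genes were tied.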
